A study of Mus musculus with 12 samples.

Results

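The genes described here are 10 markers of Kupffer cells and macrophages, Clec4f, Cd5l, Marco, Vsig4, Adgre1, Cd68, Csf1r, C1qa, C1qb and C1qc. They were chosen by gene symbol, as every probe set whose symbol in the platform annotation is 1 of these names. That gave 15 of the 45101 probe sets and 10 of the 18194 named genes, on all 12 arrays. The samples are liver RNA of adult female B6.129 mice, 1 Affymetrix array each. Mice were wild type (WT, Esr1+/+) or αERKO (Esr1-/-), which lack estrogen receptor alpha in the whole animal and not in macrophages alone. Each genotype was fed the NIH-31 diet, called normal diet here, or research diet #12492 with 60 kcal% fat, called high-fat diet, for 2 weeks. Each of the 4 groups held 3 arrays. The 2 diets may differ in more than fat. Whether the 3 arrays of a group stand for 3 mice is not stated in the labels, and a p-value here covers the spread between arrays, which may be technical.

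Kupffer cells are the resident macrophages of the liver. They sit in the sinusoids, where they clear bacteria, aged red cells, lipoproteins and cell debris from portal blood. They depend on signalling through the CSF1 receptor for survival and on the transcription factor PU.1 (gene Spi1) for macrophage identity, and they are a main source of the complement protein C1q. In fatty liver, macrophages recruited from blood monocytes join or replace the resident cells. In whole liver RNA these genes come from a minority of cells, so fewer such cells and less RNA per cell cannot be told apart.

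Values are MAS5 signals, a linear intensity scaled to the same trimmed mean on every array. Where a gene has several probe sets, the brightest stands for it. Differences are of log2(signal + 16), with a standard error (SE) from a linear model (limma) fitted to all 12264 genes above a low-signal filter. A difference was called at a Benjamini-Hochberg adjusted p under 0.05 over all of those genes. All 10 markers and all 15 probe sets passed the filter, and their signals lay above the median of the array on every array for the 10 probe sets that stand for the genes. The lowest of these was a Marco signal of 155, and array medians ranged from 75.6 to 114.

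Esr1 signals were 1963 to 3930 on the 6 WT arrays and 586 to 885 on the 6 αERKO arrays. As markers of liver, Alb (albumin) signals were 46215 to 81701. WT normal replicate 2, αERKO normal replicate 1, WT high-fat replicate 3 and WT high-fat replicate 2 held transcripts of pancreatic acinar cells, with a mean log2 signal of 10.03 to 13.8 over 9 acinar genes against at most 6.68 on the other 8 arrays. αERKO normal replicate 1 and αERKO high-fat replicate 2 held transcripts of skeletal muscle, with a mean log2 signal over 8 muscle genes of 10.8 and 9.25 against at most 7.46 on the other 10 arrays. The calls named for markers are given with and without these arrays.

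The region before the start of a gene is among the places where factors such as PU.1 can bind. Promoter windows of 250 bases from RefSeq (assembly GRCm38.p6, 5′ to 3′ on the gene's strand, ending at the base before the transcript start) were matched for 7 of the 10 markers, all but C1qa, Adgre1 and Csf1r. The 4 windows shown belong to Marco, the marker whose signal was lower on high-fat diet, and to 3 markers that were not called for diet. Capitals mark the PU box, the short purine-rich core GAGGAA that PU.1 binds, or its reverse complement TTCCTC. Marco lies at chr1:120505025-120505274 on the minus strand, Cd5l at chr3:87357631-87357880 on the plus strand, Vsig4 at chrX:96293439-96293688 on the minus strand and Clec4f at chr6:83656117-83656366 on the minus strand.
Marco: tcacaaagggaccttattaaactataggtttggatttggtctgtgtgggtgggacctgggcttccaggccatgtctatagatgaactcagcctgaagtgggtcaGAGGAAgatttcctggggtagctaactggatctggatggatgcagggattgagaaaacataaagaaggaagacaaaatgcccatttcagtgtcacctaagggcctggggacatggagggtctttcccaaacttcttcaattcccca
Cd5l: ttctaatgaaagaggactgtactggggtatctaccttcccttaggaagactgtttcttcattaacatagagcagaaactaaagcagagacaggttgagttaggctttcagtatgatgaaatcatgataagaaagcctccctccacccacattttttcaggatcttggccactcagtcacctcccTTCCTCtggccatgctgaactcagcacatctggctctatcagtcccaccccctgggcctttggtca
Vsig4: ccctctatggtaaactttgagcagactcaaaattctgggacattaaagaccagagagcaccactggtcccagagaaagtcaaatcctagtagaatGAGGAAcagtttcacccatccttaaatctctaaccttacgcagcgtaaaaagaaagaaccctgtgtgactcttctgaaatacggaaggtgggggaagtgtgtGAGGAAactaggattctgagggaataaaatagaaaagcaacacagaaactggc
Clec4f: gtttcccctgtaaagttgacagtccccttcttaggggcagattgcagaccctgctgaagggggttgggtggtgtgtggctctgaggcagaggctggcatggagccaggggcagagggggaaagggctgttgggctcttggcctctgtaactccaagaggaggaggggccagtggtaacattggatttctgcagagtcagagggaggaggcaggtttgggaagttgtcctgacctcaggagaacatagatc
On either strand, the 6 letters occurred in 6 of the 7 matched windows, and in 23.3% of all 32851 promoter windows of this length. The match began 146 bases before the start in Marco, 66 in Cd5l, 155 and 53 in Vsig4, 225 in Cd68, 30 in C1qb and 193 in C1qc. The window of Clec4f held none. The longer run GAGGAAGT, which contains the PU box, was found in 1 of the 7 windows (C1qc) against 2.44% of all windows, and the overlapping ETS core GGAAGT in 4 of 7 against 19.7%. The AP-1 element TGACTCA was in 1 of 7 (Cd68) against 4.46%, and the MAF motif core TGCTGA in 3 of 7 (Clec4f, Cd5l and C1qb) against 16.1%. A match of letters is a description of the window and shows no binding. The gene of PU.1 itself, Spi1, differed by -0.10 ± 0.29 (SE, log2) between genotypes and by -0.01 ± 0.29 between diets, and neither was called. Its signal was low, 44.7 to 165, near the array medians of 75.6 to 114. The genotype difference was 0.16 ± 0.41 on normal diet and -0.37 ± 0.41 on high-fat diet, so a change of that size was not resolved.

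Between genotypes, Csf1r and C1qa fell in αERKO liver, and Marco was the only marker called for diet. Averaged over both diets, Csf1r was 1.32-fold and C1qa 1.39-fold lower in αERKO than in WT. The 8 other markers had log2 differences of -0.11 to -0.44 and were not called. Marco was 2.23-fold lower on high-fat than on normal diet, with a log2 difference of -1.16 in each genotype, not called in either genotype alone. The 9 other markers moved by -0.06 to 0.19 on the log2 scale with diet.

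**Figure D1:**
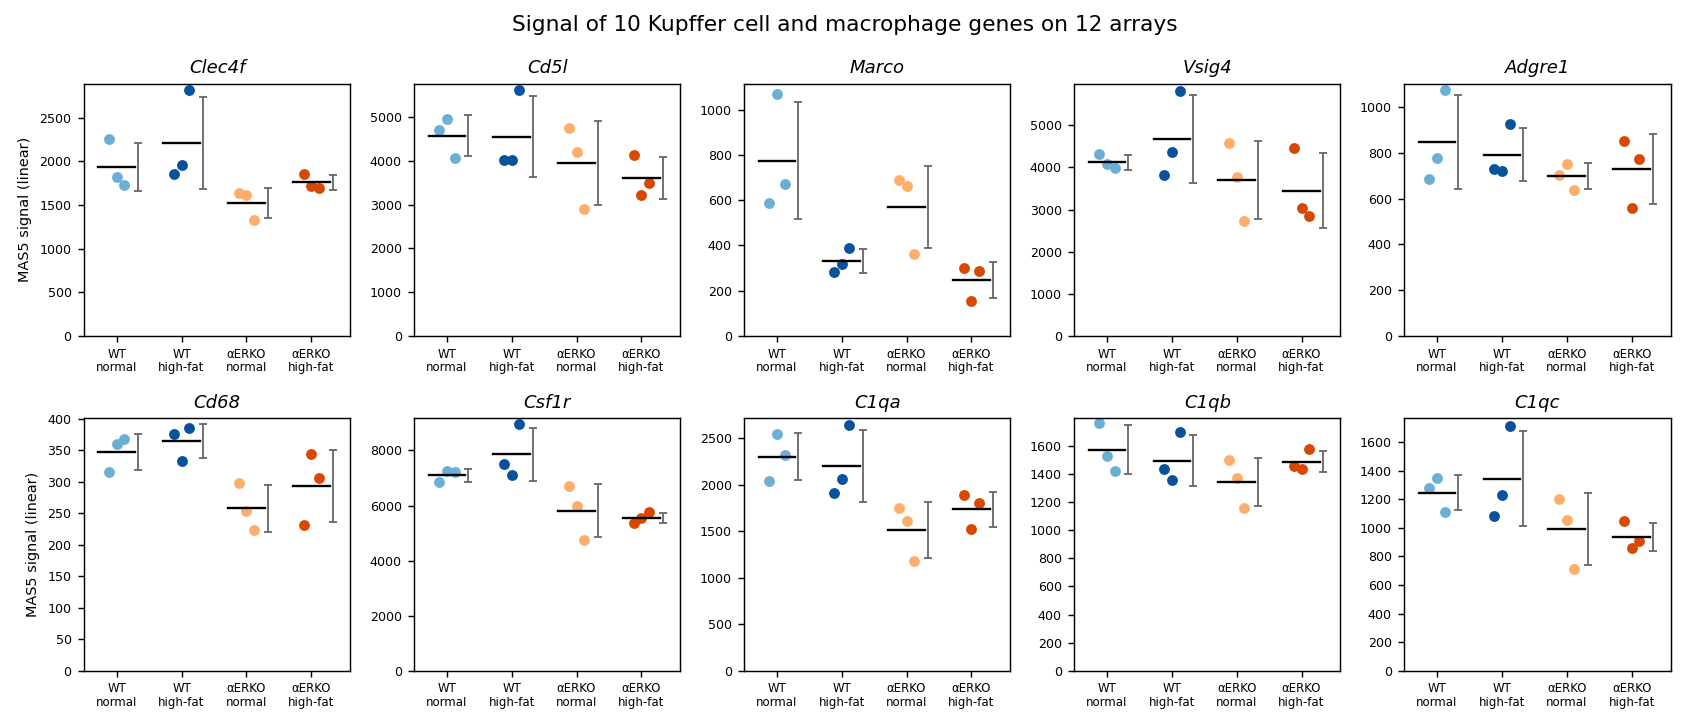
MAS5 signal (linear, vertical axes from 0) of the probe set that stands for each of the 10 genes, 1 point per array in 4 groups of 3, with the group mean as a black line and its SD as a grey bar. Csf1r and C1qa show every αERKO array below every WT array, and Marco shows the high-fat arrays below the normal arrays within each genotype.

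Csf1r encodes the receptor for the growth factors CSF1 and IL-34, on which macrophages depend. Its signal was 6838, 7264 and 7221 in WT on normal diet, 7499.9, 7116 and 8957 in WT on high-fat diet, 6694, 5997 and 4764 in αERKO on normal diet and 5368, 5544 and 5748 in αERKO on high-fat diet. All 6 αERKO arrays lay below all 6 WT arrays, with the highest αERKO value of 6694 in normal diet replicate 1 and the lowest WT value of 6838 in normal diet replicate 1. Group means were 7107 ± 235 and 7858 ± 971 in WT on normal and high-fat diet and 5818 ± 977 and 5554 ± 190.3 in αERKO (SD, n = 3). The difference averaged over diets was -0.40 ± 0.09 (SE, log2; 95% interval -0.58 to -0.21; limma, adjusted p = 0.0189). On high-fat diet alone it was -0.49 ± 0.12 with an adjusted p of 0.0565, and on normal diet alone -0.30 ± 0.12 with an adjusted p of 0.34. Without αERKO high-fat replicate 1 the averaged difference was -0.39 with an adjusted p of 0.0515, and with each of the other 11 arrays left out in turn it stayed called. Without αERKO normal replicate 1, or without αERKO normal replicate 3, the high-fat comparison was called, with adjusted p between 0.0287 and 0.0366.

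The other probe sets of Csf1r gave the same sign, but with the mean of the 3 probe sets in place of the brightest Csf1r differed by -0.34 and was not called (adjusted p = 0.0613). The probe set 1423593_a_at read 684, 709.5 and 797 in WT on normal diet, 807, 656 and 671 in WT on high-fat diet, 605, 545 and 508 in αERKO on normal diet and 588, 565 and 587 in αERKO on high-fat diet. Its αERKO values, at most 605, all lay below its WT values, at least 656. It differed by -0.34 ± 0.10 (SE, log2) between genotypes. The probe set 1419873_s_at, whose suffix marks probes shared by several transcripts, ranged from 723 to 1389, overlapped between genotypes and differed by -0.30 ± 0.15.

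C1q, the recognition molecule that starts the classical complement pathway, is built from 3 chains, encoded by C1qa, C1qb and C1qc. The 3 genes neighbour each other on chromosome 4, with 0 other annotated genes between them. C1qa signal was 2045, 2549 and 2318 in WT on normal diet, 1911, 2060.0 and 2641 in WT on high-fat diet, 1752, 1615 and 1177 in αERKO on normal diet and 1887, 1522 and 1801 in αERKO on high-fat diet. Again all 6 αERKO arrays, up to 1887, lay below all 6 WT arrays, from 1911, and the nearest values of the 2 genotypes, 1887 and 1911, were close. C1qa differed by -0.47 ± 0.12 (SE, log2; 95% interval -0.73 to -0.22; limma, adjusted p = 0.0358) averaged over diets, by -0.61 ± 0.17 (adjusted p = 0.114) on normal diet and by -0.33 ± 0.17 (adjusted p = 0.367) on high-fat diet. The C1qa call was lost, with adjusted p of 0.0527 to 0.0981, when any 1 of 8 arrays was left out: WT normal replicates 2 and 3, WT high-fat replicates 2 and 3, αERKO normal replicates 2 and 3, and αERKO high-fat replicates 1 and 2.

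C1qc signal was 1281, 1351 and 1109 in WT on normal diet, 1082, 1233 and 1717 in WT on high-fat diet, 1206, 1053 and 713 in αERKO on normal diet and 1047, 856 and 906 in αERKO on high-fat diet. On high-fat diet the αERKO arrays lay below the WT arrays, and on normal diet αERKO replicate 1 lay within the WT range. Its difference of -0.42 ± 0.14 between genotypes had an adjusted p of 0.108 and was not called. For C1qb the brightest probe set, 1437726_x_at, read 1768, 1533 and 1425 in WT on normal diet, 1435, 1356 and 1702 in WT on high-fat diet, 1503, 1373 and 1161 in αERKO on normal diet and 1457, 1437 and 1576 in αERKO on high-fat diet. These values overlapped on both diets, and the difference was -0.11 ± 0.09 (adjusted p = 0.546). Its 2 other probe sets disagreed in sign, with -0.29 ± 0.19 for 1417063_at and 0.0044 ± 0.096 for 1434366_x_at, and the suffix _x_at marks probes that can bind transcripts of other genes. The probe set 1417063_at ranged from 1116 to 1628 in WT and from 810.1 to 1803 in αERKO.

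**Figure D2:**
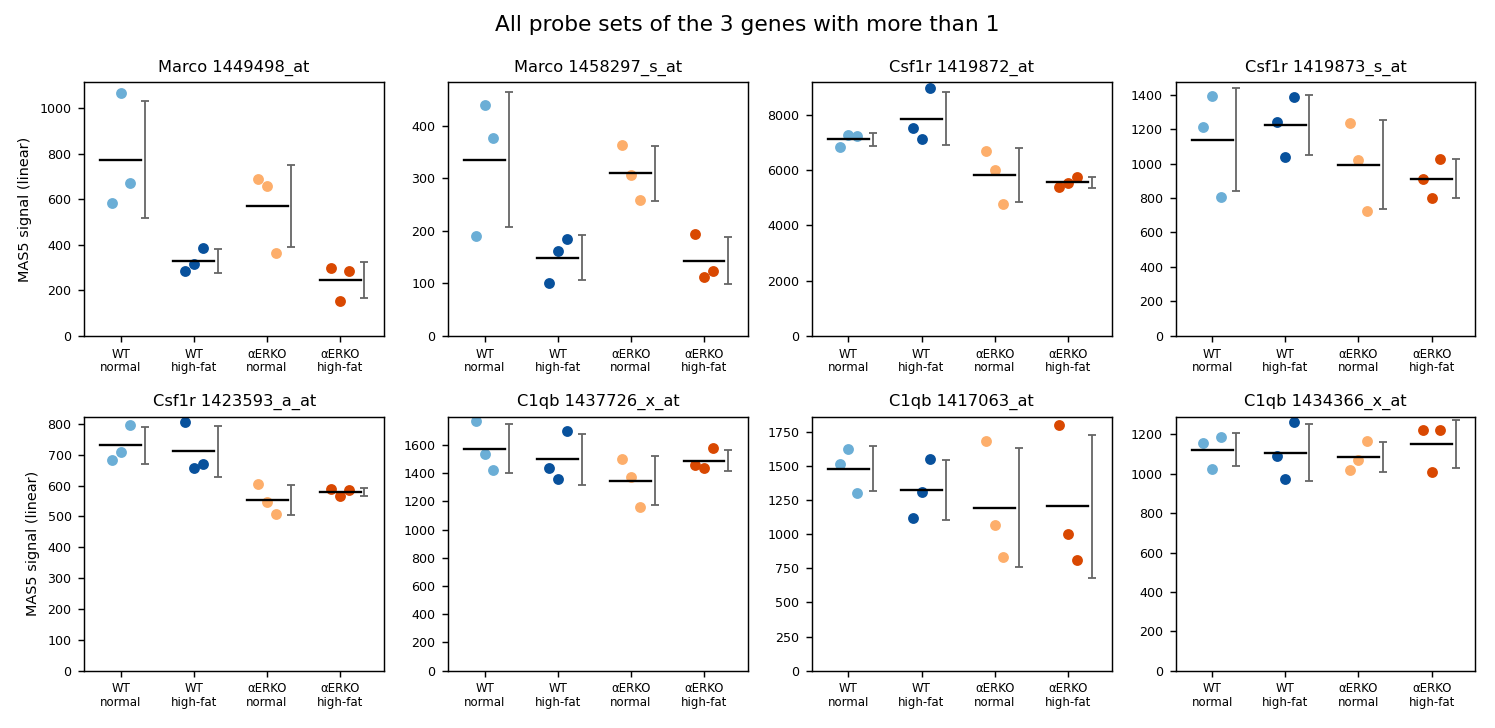
MAS5 signal (linear, vertical axes from 0) of every probe set of Marco, Csf1r and C1qb on the 12 arrays, 1 point per array, with the group mean as a black line and its SD as a grey bar. Both Marco probe sets are lower on high-fat diet, the 3 Csf1r probe sets are lower in αERKO on average, and the 3 C1qb probe sets differ from each other.

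As the background to these counts, 2.26% of the 12264 genes tested were called lower in αERKO averaged over diets (277 genes, of 530 called in either direction), and 2 of the 10 markers were. All αERKO arrays lay below all WT arrays for 1.64% of the genes tested, and for Csf1r and C1qa among the markers. The share of all genes with every αERKO array below every WT array within a single diet was not counted. Such separations of 3 against 3 arrays, given here for markers and other genes, are descriptions. Within a single diet, 0 markers were called, where 1.22% of all genes were called for genotype on normal diet and 1.98% on high-fat diet. At an unadjusted p under 0.05, limma gave 3 markers on normal diet, 3 on high-fat diet and 7 averaged over diets, against 12.1%, 15.2% and 19.6% of all genes tested.

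The fitted differences between genotypes were below 0 for all 10 markers, on either diet and averaged, and 57.4% of all genes tested were below 0 averaged over diets. The median of the 10 was -0.32 on normal diet, -0.33 on high-fat diet and -0.34 averaged, and the median of all genes was -0.05, -0.03 and -0.05. When each array was centred on its median instead, the median of all genes shifted up by 0.12. C1qb then differed by 0.0071, the 9 others kept their sign, and neither Csf1r (-0.28, adjusted p = 0.27) nor C1qa (-0.35, adjusted p = 0.248) was called. Without the 4 arrays with pancreatic transcripts, Csf1r differed by -0.41 with an adjusted p of 0.109, and C1qa by -0.40 with an adjusted p of 0.244. In those 8 arrays Csf1r was 6838 to 7500 in 3 WT and 4764 to 5997 in 5 αERKO arrays, and C1qa was 1911 to 2318 against 1177 to 1887. Without the 2 αERKO arrays with muscle transcripts, Csf1r differed by -0.45 with an adjusted p of 0.0248, and C1qa by -0.48 with an adjusted p of 0.0652.

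**Figure D3:**
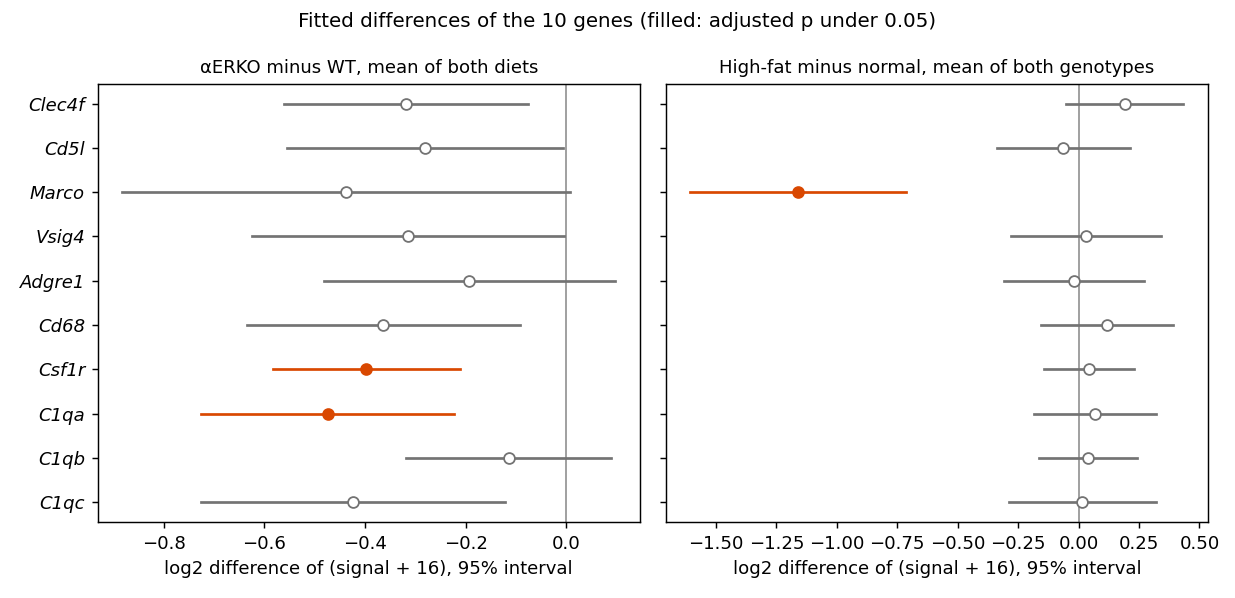
Fitted log2 difference of each of the 10 genes with its 95% interval, αERKO minus WT averaged over diets on the left and high-fat minus normal diet averaged over genotypes on the right; filled orange points have an adjusted p under 0.05. Csf1r and C1qa are filled on the left with all 10 points below 0, and on the right Marco is filled at -1.16 with the other points between -0.06 and 0.19.

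Clec4f encodes a galactose-binding lectin that in mice is found almost only on Kupffer cells. Its signal was 2251, 1819 and 1734 in WT on normal diet, 1852, 1954 and 2816 in WT on high-fat diet, 1632, 1619.5 and 1325 in αERKO on normal diet and 1858, 1721 and 1697 in αERKO on high-fat diet. The αERKO arrays on normal diet all lay below the WT arrays on that diet, and on high-fat diet 2 of 3 lay below. The difference of -0.32 ± 0.11 (SE, log2) was not called (adjusted p = 0.134).

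Vsig4 encodes a complement receptor that binds C3 fragments on blood-borne particles. Its signal was 4315, 4076 and 3980.0 in WT on normal diet, 3811, 4378 and 5827 in WT on high-fat diet, 4591, 3778 and 2733 in αERKO on normal diet and 4467, 3037 and 2839 in αERKO on high-fat diet. The groups overlapped on both diets, and the difference of -0.31 ± 0.14 was not called (adjusted p = 0.246). Cd5l encodes a secreted protein that protects macrophages from lipid-induced death. Its signal was 4712, 4956 and 4062 in WT on normal diet, 4023, 4013 and 5629 in WT on high-fat diet, 4753, 4199 and 2897 in αERKO on normal diet and 4143, 3209.8 and 3486 in αERKO on high-fat diet. The groups overlapped again, with a difference of -0.28 ± 0.13 (adjusted p = 0.244).

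Cd68 encodes a lysosomal membrane protein of macrophages. Its signal was 315, 359 and 368 in WT on normal diet, 376, 334 and 385 in WT on high-fat diet, 298, 254 and 223 in αERKO on normal diet and 231, 344 and 306 in αERKO on high-fat diet. On normal diet the αERKO arrays lay below the WT arrays, and on high-fat diet 1 of 3 lay within the WT range. The difference of -0.36 ± 0.13 had an adjusted p of 0.124. Adgre1 encodes F4/80, the surface protein by which mouse macrophages are usually stained. Its signal ranged from 685 to 1077 in WT and from 557 to 853 in αERKO, and the difference of -0.19 ± 0.14 had an adjusted p of 0.466.

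Marco encodes a class A scavenger receptor that binds bacteria and modified lipoproteins. Its signal was 586, 1069 and 670.0 in WT on normal diet, 284, 317 and 387 in WT on high-fat diet, 691, 660.2 and 363 in αERKO on normal diet and 298, 155 and 286 in αERKO on high-fat diet. Within each genotype all high-fat values lay below all normal values, although αERKO normal replicate 3, at 363, was below the highest WT high-fat value of 387. Group means were 775 ± 258 and 329 ± 52.3 in WT on normal and high-fat diet, and 571 ± 181 and 246 ± 79.5 in αERKO (SD, n = 3). Averaged over genotypes the difference was -1.16 ± 0.21 (SE, log2; 95% interval -1.61 to -0.71; limma, adjusted p = 0.0192). It was -1.16 ± 0.29 in WT (adjusted p = 0.258) and -1.16 ± 0.29 in αERKO (adjusted p = 0.128), so neither genotype alone was called. The difference between those diet differences was -0.0036 with a 95% interval from -0.90 to 0.89, which leaves room for a large one in either direction.

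The second Marco probe set, 1458297_s_at, read 191, 439 and 376 in WT on normal diet, 102, 162 and 184 in WT on high-fat diet, 363, 307 and 259 in αERKO on normal diet and 194, 112 and 124 in αERKO on high-fat diet. All high-fat values again lay below all normal values of the same genotype, narrowly in WT, where 191 on normal diet was next to 184 on high-fat diet. Its diet difference was -1.05 ± 0.22. Between genotypes the 2 Marco probe sets gave -0.44 ± 0.21 and -0.05 ± 0.22, and the first was not called (adjusted p = 0.266). The diet call was lost without WT high-fat replicate 1 (-1.11, adjusted p = 0.0513) and without WT high-fat replicate 2 (-1.15, adjusted p = 0.0519). Without the 4 arrays with pancreatic transcripts the difference was -1.05 with an adjusted p of 0.19, and with acinar and muscle scores as covariates it was -1.15 with an adjusted p of 0.00938. Without the 2 αERKO arrays with muscle transcripts it was -0.94 with an adjusted p of 0.0784.

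For diet averaged over genotypes, 0.318% of all genes were called lower (39 genes, of 116 called in either direction), and of the markers Marco alone. High-fat arrays lay below normal arrays within both genotypes for 1.05% of genes and for 1 of the 10 markers. In WT alone 0.0734% of genes and 0 markers were called for diet, and in αERKO alone 0.481% of genes and 0 markers. Marco was the 1 marker with an unadjusted p under 0.05 by limma in each of the 3 diet comparisons, where 8.28% of all genes in WT, 10.3% in αERKO and 12.6% averaged over genotypes were under it. The median diet difference of the 10 markers was 0.034, and that of all genes was 0.0024. The 95% intervals of the 9 others for diet, averaged over genotypes, reached from -0.34 at the lowest (Cd5l) to 0.43 at the highest (Clec4f).

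For the interaction, the diet difference in αERKO minus that in WT, 0 of the 10 markers and 0 of all genes (0%) were called by limma. At an unadjusted p under 0.05 there were 0 markers and 728 genes (5.94%). The marker values ran from -0.26 ± 0.29 for Vsig4 to 0.28 ± 0.23 for C1qa.

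Most of the markers varied together from array to array. With each gene centred on its mean over the 12 arrays, the mean of the 10 on the log2 scale was highest in WT high-fat replicate 3 at 0.39, followed by WT normal replicate 2 at 0.28, and lowest in αERKO normal replicate 3 at -0.45. Of the 10 markers, 7 were highest in WT high-fat replicate 3 and 8 lowest in αERKO normal replicate 3. The 2 highest arrays are among the 4 with pancreatic transcripts. Without WT high-fat replicate 3 the genotype difference was -0.35 for Csf1r (adjusted p = 0.0459) and -0.41 for C1qa (adjusted p = 0.0787). Without αERKO normal replicate 3 it was -0.33 for Csf1r (adjusted p = 0.033) and -0.39 for C1qa (adjusted p = 0.0689).

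**Figure D4:**
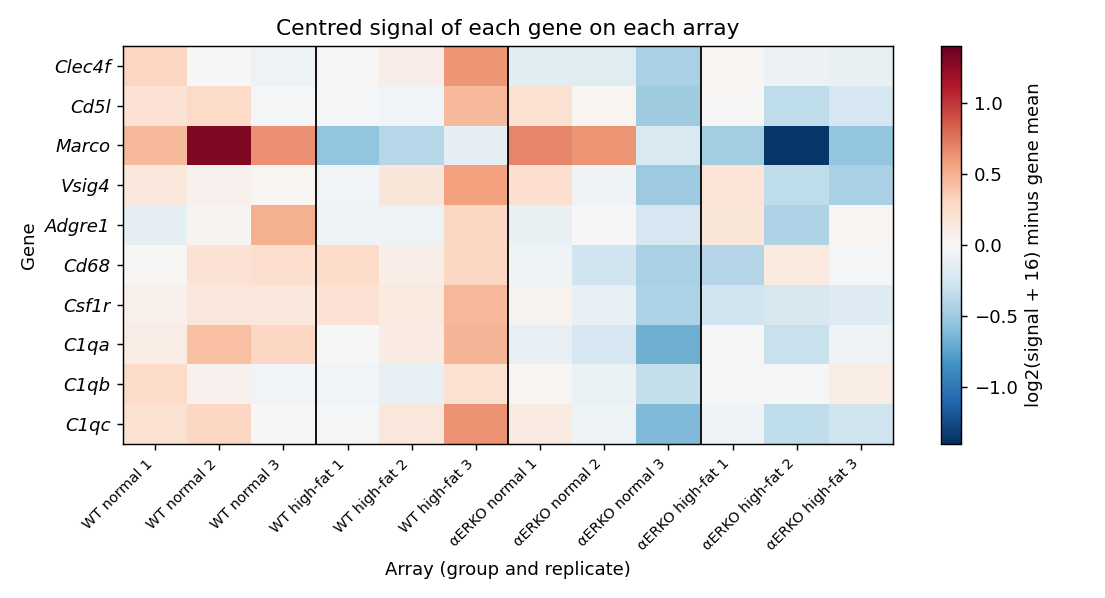
Log2(signal + 16) of each gene minus its mean over the 12 arrays (colour, red above and blue below the mean), genes in rows and arrays in columns by group, with vertical lines between groups. Most genes are reddest in WT high-fat replicate 3 and bluest in αERKO normal replicate 3, and the Marco row follows diet.

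Among the 9 markers other than Marco, the Pearson correlation over the 12 arrays had a median of 0.71 over 36 pairs, from 0.25 to 0.96, the highest between Cd5l and C1qc. With group means removed the median was 0.64. Marco correlated less with the other 9, with a median of 0.36, and 0.60 once group means, and with them the diet difference, were removed. With group means removed, Cd68 (median 0.14 with the other 9) and Adgre1 (0.37) correlated less than Marco. The lowest pair was then Adgre1 and Cd68, at -0.096. All of these share the same 12 arrays and their scaling, so they are descriptions. By the same measure, the genes outside the markers whose log2 values followed the marker mean most closely were BC028528 (r = 0.92), 2700049A03Rik (0.88), Atp6v1b2 (0.88), Cybb (0.87), Cdk17 (0.85), Vopp1 (0.84), Timd4 (0.84) and Mysm1 (0.84). Cybb, the phagocyte NADPH oxidase subunit, and Timd4, the phosphatidylserine receptor of resident Kupffer cells, are known macrophage genes. With group means removed the closest were Zfp444 (0.95), Ipmk (0.95), Asah1 (0.94), Ccng2 (0.93), Cfp (0.93), Uck1 (0.92), Ap4b1 (0.91) and BC028528 (0.90), of which Cfp encodes properdin, made by macrophages and other leukocytes.

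Beyond the 10 markers, 13 of 14 other Kupffer cell genes were measured, and 1, Fcna, fell in αERKO averaged over diets. Of all genes tested, 2.26% were called lower there. This list and those below were chosen with earlier results of these data known. Fcna encodes ficolin A, a lectin of Kupffer cells that starts the lectin complement pathway. Its signal was 2392, 1784 and 2275 in WT on normal diet, 2132, 2101 and 3016 in WT on high-fat diet, 1955, 1790.0 and 1562 in αERKO on normal diet and 1728, 1529 and 1264 in αERKO on high-fat diet. Its αERKO arrays on high-fat diet lay below all WT arrays on that diet, while on normal diet 2 of 3 αERKO arrays lay above the lowest WT array. Its difference was -0.47 ± 0.12 (adjusted p = 0.0406), and the call held in 8 of 24 other settings. Without the 4 arrays with pancreatic transcripts it differed by -0.49 (adjusted p = 0.122), and without the 2 with muscle transcripts by -0.52 (0.0798). The call was also lost with median centring (0.247) and with acinar and muscle covariates (0.0926). It was lost, with adjusted p up to 0.0869, when any 1 of 9 arrays was left out: WT normal replicates 1 and 3, all 3 WT high-fat replicates, αERKO normal replicates 2 and 3, and αERKO high-fat replicates 2 and 3. Of the 13, 12 had values below 0, with a median of -0.28, where 57.4% of all genes tested were below 0. Timd4 differed by -0.58 ± 0.19 (adjusted p = 0.101) and Folr2, the folate receptor of resident macrophages, by -0.52 ± 0.15 (adjusted p = 0.0659). Spic, the factor of iron-recycling macrophages, differed by 0.57 ± 0.30 (adjusted p = 0.317).

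Of 17 general macrophage genes, 15 were measured, and Mertk, the receptor tyrosine kinase by which macrophages take up apoptotic cells, fell in αERKO. Its signal was 1676, 1241 and 2099 in WT on normal diet, 1674, 1642 and 1403 in WT on high-fat diet, 1131, 1303 and 1364 in αERKO on normal diet and 840.0, 864 and 1143 in αERKO on high-fat diet. On high-fat diet the αERKO arrays lay below the WT arrays, and on normal diet 1 WT array, at 1241, fell within the αERKO range of 1131 to 1364. The difference was -0.55 ± 0.13 (adjusted p = 0.0262), called in 15 of 24 other settings. The call was lost, with adjusted p up to 0.0731, when any 1 of 7 arrays was left out: WT normal replicates 1 and 3, WT high-fat replicates 1 and 2, αERKO normal replicate 1, and αERKO high-fat replicates 1 and 2. Without the 4 arrays with pancreatic transcripts it differed by -0.66 (adjusted p = 0.0557), and without the 2 with muscle transcripts by -0.48 (0.116). The list had 1 of 15 genes called lower and 14 of 15 values below 0, with a median of -0.23. Over all genes tested, 2.26% were called lower and 57.4% were below 0. Cybb differed by -0.48 ± 0.13 (adjusted p = 0.0574).

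Of 12 monocyte and recruited macrophage genes, 10 were on the array, 5 passed the filter and 0 were called. Their median between genotypes was -0.07 averaged over diets, -0.31 on normal diet with 5 of 5 below 0, and 0.18 on high-fat diet with 2 of 5 below 0. Of all genes tested, 57.8% were below 0 on normal diet and 54.4% on high-fat diet. The interaction of these 5 had a median of 0.50, from 0.23 (Cd9) to 0.68 (Plac8), and 0 of the 5 had an unadjusted p under 0.05 there. Ccr2, the chemokine receptor that brings monocytes out of the marrow, differed by 0.09 ± 0.23 between genotypes and by 0.24 ± 0.23 with diet. Trem2, Gpnmb and Spp1, genes of lipid-associated macrophages, did not pass the filter. Of 13 inflammatory mediators, 5 passed, 0 were called and their median was -0.30, and Il6, Ccl2, Ccl3, Cxcl2, Nos2 and Il10 were below the array median on all 12 arrays. At an unadjusted p under 0.05 limma gave 1 of 5 and 2 of 5 genes of these lists between genotypes, against 19.6% of all genes. Among 5 measured ligands and receptors of the colony stimulating factors, 0 were called, 2 had an unadjusted p under 0.05 and the median was -0.39. Csf1, the ligand of the receptor encoded by Csf1r, differed by -0.44 ± 0.19 (adjusted p = 0.228), and Il34, its other ligand, by -0.09 ± 0.28.

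Other components of the classical and lectin complement pathways come mainly from hepatocytes. Of 10 such genes 8 were measured, with a median of 0.07 between genotypes. Of these, Mbl2, a mannose-binding lectin of the lectin pathway, fell, with a log2 difference of -0.30 ± 0.06 (adjusted p = 0.0125), where 2.26% of all genes were called lower. Mbl2 signal was 21429, 22893 and 21538 in WT on normal diet, 25492, 23580.0 and 23375 in WT on high-fat diet, 16186, 17474 and 15914 in αERKO on normal diet and 20840.0, 23407 and 19110.0 in αERKO on high-fat diet. On normal diet all αERKO arrays lay below all WT arrays, where Mbl2 was also called (-0.41). That call held in 8 of 25 other settings and was lost with each single array left out other than αERKO high-fat replicates 2 and 3 (adjusted p up to 0.133), and without the 4 pancreatic arrays (0.351). The proteases that bind C1q, C1ra and C1s1, differed by 0.01 ± 0.07 and 0.19 ± 0.06 and were not called. The averaged Mbl2 call was lost with median centring (adjusted p = 0.424), without an intensity trend (0.0744) and without the 4 pancreatic arrays (0.179).

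The median between genotypes was -0.09 for 10 sinusoidal endothelial genes, -0.09 for 9 stellate cell genes, -0.32 for 6 T and NK cell genes, -0.08 for 5 B cell genes, -0.03 for 3 dendritic cell genes, -0.02 for 5 neutrophil genes and -0.66 for 3 cholangiocyte genes, with 0 genes called in each list. Many T and NK cell and cholangiocyte genes lay near or below the array medians of 75.6 to 114. Gzma read 11.3 to 157 and Sox9 14.3 to 133, while Ccl5 read 109 to 325. Dendritic cell, neutrophil and B cell lists also held dim or widely scattered genes. Cd209a read 13.7 to 190, Ltf 14.2 to 266, Elane 3.74 to 128 and Ighm 15.5 to 4256. The medians of all these lists are therefore imprecise. Of 7 hepatocyte genes, Alb (-0.35 ± 0.07, adjusted p = 0.0134) and Ahsg (-0.31 ± 0.06), both secreted plasma proteins, fell, and the median was -0.22, with 7 of 7 values below 0. Over all genes tested, 2.26% were called lower and 57.4% were below 0. Alb was also called lower on normal diet (-0.50), in 14 of 25 other settings and not without WT normal replicate 2 or 3 or any 1 of the αERKO normal arrays (adjusted p up to 0.106), nor without the 4 pancreatic arrays (0.13). The averaged Alb and Ahsg calls were lost with median centring, without an intensity trend and without the 4 pancreatic arrays, with adjusted p of 0.0716 to 0.393. The summed signal of the 7 hepatocyte genes was 456980 to 490000 in WT and 355790 to 410380 in αERKO on normal diet, and 399150 to 450790 against 340150 to 398390 on high-fat diet. The summed signal of the 10 markers was 23962 to 25753 in WT and 15994 to 23822 in αERKO on normal diet, and 23005 to 30988 against 18381 to 21610 on high-fat diet. Alas2, an enzyme of haem synthesis in red cell precursors, rose in αERKO by 1.88 ± 0.16, on normal diet by 1.86 and on high-fat diet by 1.89. It was the only 1 of 5 red blood cell genes measured. Of the 12264 genes tested, 253 were called higher averaged over diets, 72 on normal diet and 135 on high-fat diet. The median of 9 acinar genes was -2.18 and that of 8 muscle genes 0.81, with 0 called. The part of these lists in the marker differences was not tested, other than by the fits with acinar and muscle scores as covariates, where Csf1r differed by -0.39 (adjusted p = 0.0595) and C1qa by -0.37 (adjusted p = 0.163).

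For diet, 0 genes of these lists other than Marco were called when averaged over genotypes. Cd163, the haemoglobin scavenger receptor of resident macrophages, had the lowest value among the other Kupffer cell genes at -0.42 ± 0.13 (adjusted p = 0.19). The medians were -0.05 for other Kupffer cell genes, 0.05 for general macrophage genes and 0.05 for monocyte and recruited macrophage genes.

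**Figure D5:**
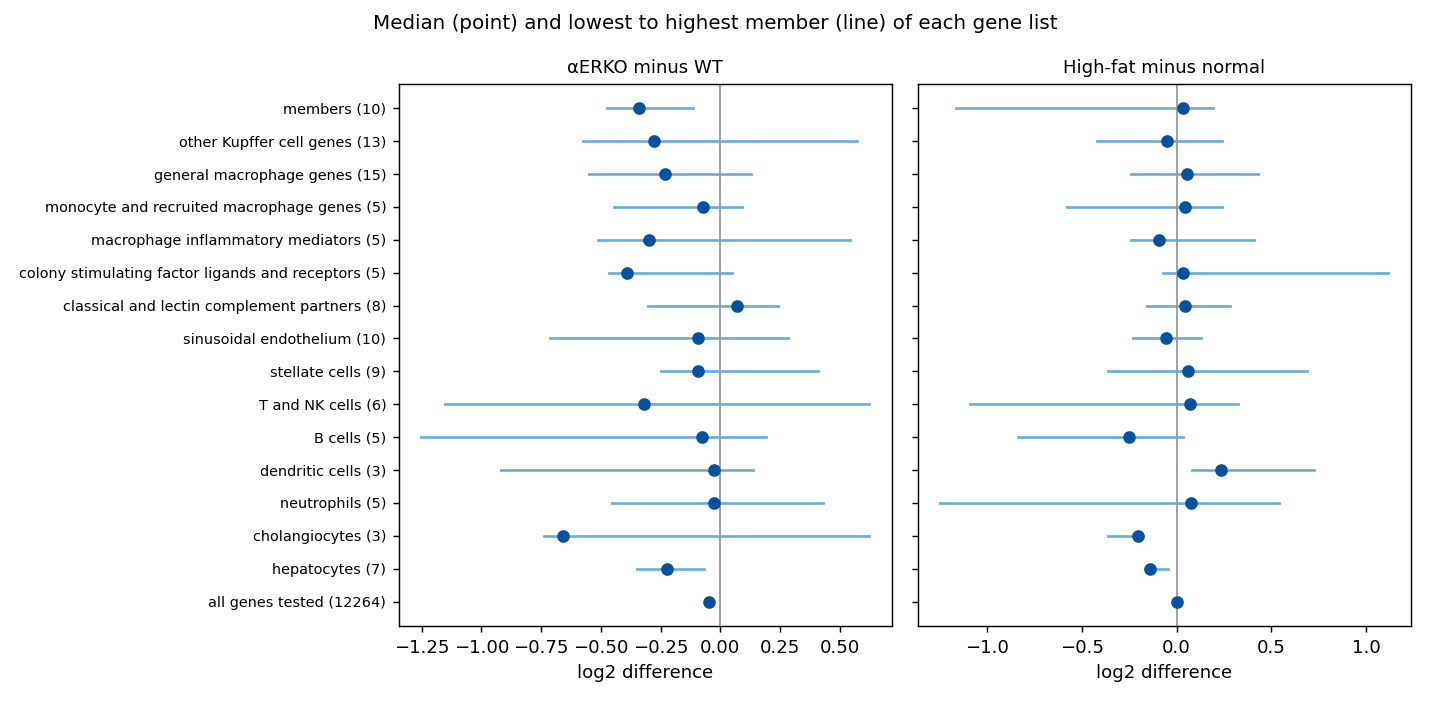
Median log2 difference (point) and the range from lowest to highest gene (line) of each gene list shown. Differences are αERKO minus WT averaged over diets on the left and high-fat minus normal diet averaged over genotypes on the right. The number of genes measured is in brackets. Pancreatic acinar, skeletal muscle and red blood cell genes are not shown, with medians between genotypes of -2.18, 0.81 and 1.88 (1 gene). The 10 markers, other Kupffer cell genes and general macrophage genes have medians of -0.34, -0.28 and -0.23 between genotypes, against -0.05 for all genes, and medians near 0 for diet. Medians of the other lists shown run between genotypes from -0.66 (cholangiocytes) to 0.07 (classical and lectin complement partners). Those of colony stimulating factor genes (-0.39), T and NK cells (-0.32), macrophage inflammatory mediators (-0.30) and hepatocytes (-0.22) are similar to those of the lists named first.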

How the data were processed

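Total RNA of 12 liver samples was amplified with a 3′ kit and hybridised to Affymetrix arrays, per the labels' protocols. The authors deposited 1 linear intensity per probe set (MAS5 signal). Affymetrix Expression Console and MAS5 are named in the submitters' processing notes without versions. On each array the mean intensity without the lowest and highest 2% was 500. MAS5 treats each array alone, so dim signals scatter widely.

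Of 45101 probe sets, 34958 had 1 symbol, 932 several and 9211 none listed. The brightest probe set over the 12 arrays stood for a gene. Genes above the array median on at least 3 arrays were kept (12264). Group means of log2(signal + 16) were fitted in R 4.3.3 with limma 3.58.1 (intensity trend, 8 residual and 5.85 prior degrees of freedom), two-sided, for 7 comparisons, and tested on simulated data. Groups and replicates came from the labels. No 2 arrays were identical. The main fit used no block for replicate number. Deviations from group means correlated by -0.30 to 0.21 in 18 same-number pairs, 4 of them over 0.1, and by -0.25 to 0.28 in pairs with other numbers. This cannot show whether replicate numbers pair the samples, since deviations from a mean of 3 arrays are tied to each other.

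The members and the 17 gene lists beside them were chosen with earlier results of these data known. All members were named with every probe set, and every called list gene other than acinar and muscle genes. Alternatives covered pseudocount, filter, scaling, probe sets, variance model, weights, block, other tissue and single arrays. The number of arrays limits the precision.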

Additional observations from a re-analysis of the deposited data

How the results depend on the processing

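Each of the 10 markers was refitted in the 7 comparisons under up to 25 settings, 12 of which left out 1 array. Of 1720 refitted differences, 24 lost a call and 7 gained one, and 97 uncalled differences changed sign. No called difference reversed. Between genotypes averaged over diets, where 2 markers were called, 0 were called with median centring, without an intensity trend, with acinar and muscle covariates and without the 4 arrays with pancreatic transcripts. Only 1 was called with the mean of probe sets (C1qa), and leaving out single arrays gave 0 to 2. With the replicate number as a block, 1 marker (Csf1r) was called and C1qa had an adjusted p of 0.0614, and the block changed no other call of a marker. Fcna had an adjusted p of 0.0563 with the block. For genotype on high-fat diet, where 0 were called, 1 (Csf1r) was called with quantile normalization, with a fit of those 2 groups alone and with array quality weights, and leaving out single arrays gave 0 to 1. For diet averaged over genotypes, where Marco was called, 0 were called with median centring (adjusted p = 0.0661), without an intensity trend (0.0916) and without the 4 pancreatic arrays (0.19), and leaving out single arrays gave 0 to 1. For diet in αERKO, 1 (Marco) was called with array quality weights. The median interaction of the markers moved from 0.016 to 0.22 without the 4 pancreatic arrays. The cause of these changes was not tested, other than that the last setting rests on 8 arrays. Without the 2 arrays with muscle transcripts, a setting chosen after seeing the data and not among the 25, 1 marker (Csf1r) was called between genotypes averaged over diets and 0 for diet. C1qc was called between genotypes only with array quality weights (-0.48, adjusted p = 0.0439).

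Csf1r was called in 18 of 24 settings (-0.45 to -0.28), C1qa in 11 of 24 (-0.53 to -0.35) and Marco for diet in 19 of 24 (-1.30 to -1.02). Over all genes, calls ranged from 182 to 844 for genotype averaged (530 as reported), 71 to 172 on normal diet (150), 60 to 944 on high-fat diet (243), 26 to 192 for diet averaged (116), 0 to 21 in WT (9), 12 to 187 in αERKO (59) and 0 to 2 for the interaction (0). With 3 arrays a group, the SD of the marker mean between replicates was 0.19 on the log2 scale. That SD describes a mean over markers and is not the error of a difference for a single gene. Between genotypes averaged over diets, the SE of single markers ran from 0.087 (Csf1r) to 0.21 (Marco). There Csf1r was called at -0.40, while C1qc at -0.42 and Marco at -0.44 were not, so differences well above 0.19 could also stay unresolved. Cross-binding of _s_at and _x_at probes was not tested. Detection flags were not used here.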

Other observations

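A few macrophage genes outside the lists, chosen after their values were seen, were called for diet averaged over genotypes. Of the 12264 genes tested, 77 were called higher and 39 lower in that comparison. Between genotypes, 277 were called lower averaged over diets and 108 on high-fat diet. Clec7a, the receptor for fungal beta-glucan also called dectin-1, was higher on high-fat diet. Its signal was 436, 664 and 571 in WT on normal diet, 824, 903 and 999 in WT on high-fat diet, 472, 598 and 437 in αERKO on normal diet and 766, 751 and 777 in αERKO on high-fat diet. All high-fat arrays lay above all normal arrays, and the difference was 0.66 ± 0.12 (SE, log2; limma, adjusted p = 0.0192). Ccl9, a chemokine of myeloid cells, differed by 0.70 ± 0.13 (adjusted p = 0.0238) with diet, and by -0.56 ± 0.13 (adjusted p = 0.0292) between genotypes averaged over diets. On high-fat diet the genotype difference of Ccl9 was -0.84 ± 0.19 (adjusted p = 0.0358), called in 14 of 25 other settings, and without the 4 pancreatic arrays -0.67 (adjusted p = 0.335). That call was also lost without any 1 of the WT high-fat arrays, the αERKO high-fat arrays and αERKO normal replicate 2 (adjusted p up to 0.143). Its signal was 1801, 1814 and 1184 in WT on normal diet, 2771, 3419.6 and 3179.7 in WT on high-fat diet, 995, 1371 and 1589.8 in αERKO on normal diet and 1707, 1865 and 1644 in αERKO on high-fat diet.

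Atp6v0d2, a proton pump subunit of macrophages and osteoclasts, was higher on high-fat diet by 0.74 ± 0.14 (adjusted p = 0.0238), and Cxcl13, a B cell chemokine, differed by -1.03 ± 0.20 (adjusted p = 0.0269). For Atp6v0d2 the signals were 563, 475 and 389.5 in WT on normal diet, 582, 633 and 914 in WT on high-fat diet, 338, 367 and 287 in αERKO on normal diet and 686, 534 and 712 in αERKO on high-fat diet. For Cxcl13 they were 625, 801 and 1245 in WT on normal diet, 395, 612 and 388 in WT on high-fat diet, 876, 655 and 578 in αERKO on normal diet and 417, 298 and 216 in αERKO on high-fat diet. For Ccl9, Atp6v0d2 and Cxcl13 the high-fat and normal arrays did not overlap within either genotype. High-fat arrays lay below normal arrays within both genotypes for 1.05% of all genes, and the share lying above was not counted. The 4 diet calls of Clec7a, Ccl9, Atp6v0d2 and Cxcl13 were lost with median centring, without an intensity trend and without the 4 arrays with pancreatic transcripts. Their adjusted p there lay between 0.0625 and 0.295. Over all settings they kept their sign, and held in 14 to 17 of 24. The Clec7a and the Ccl9 diet calls were each lost without any 1 of WT high-fat replicates 2 and 3 and αERKO high-fat replicates 1 and 2. The Atp6v0d2 call was lost without any 1 of WT normal replicate 3, WT high-fat replicates 2 and 3, αERKO normal replicate 3 and αERKO high-fat replicates 1 and 3, and the Cxcl13 call without any 1 of WT normal replicate 3, WT high-fat replicates 1 and 3, αERKO normal replicate 1 and αERKO high-fat replicates 2 and 3. The adjusted p was then at most 0.0749. The Ccl9 genotype call was lost without any 1 of WT normal replicates 1 and 2, WT high-fat replicates 2 and 3 and the 3 αERKO high-fat arrays (adjusted p up to 0.0786). It was also lost with median centring (0.195), without an intensity trend (0.0815), with acinar and muscle covariates (0.165) and without the 4 pancreatic arrays, where the difference was -0.33 (0.359).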
